A study of Mus musculus with 6 samples.

Results

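Cytochrome P450 genes of the nasal lining were taken from the deposited table by name: every row whose symbol has the form of a mouse P450 gene, or is Cyp51, with a summed raw count of 30 or more over the 6 libraries. Of 31319 genes in the table, 80 carried such a name and 49 met the count, 47 of them protein-coding and 2 pseudogenes. At the edge of the rule, Cyp2c65 with 33 counts in all was included and Cyp2c69 with 27 was not. The libraries hold polyadenylated RNA of the main olfactory epithelium of male C57BL/6 mice aged 5 months. KD denotes 3 libraries of mice with knockdown of miR-200b/a, and NC denotes 3 libraries of the control group. Both groups are of the same sex, strain background and age. The sources used here do not say how the knockdown was made, in which cells it acted or what NC mice received, and the level of the microRNAs themselves was not analysed here. Values of a group are always listed in the order of the replicate numbers 1, 2 and 3. Whether the 3 libraries of a group are 3 mice is not stated, so the p-values speak only of library-to-library spread, possibly of technical origin.

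P450 enzymes are haem proteins, most of them anchored in the endoplasmic reticulum, that insert 1 atom of oxygen into a substrate with electrons passed on by P450 reductase (Por) and cytochrome b5. The olfactory lining is known as one of the richest sites of these enzymes outside the liver. There they sit mainly in sustentacular cells, which support the sensory neurons, and in Bowman glands, where they clear odorants and convert inhaled compounds, some into toxic products. Other members have fixed tasks: the making of sterols, the turnover of fatty acids and eicosanoids, and the activation or removal of vitamins A and D.

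Libraries that stand apart come before the results. KD-2 held 149 counts of Omp, the marker of mature olfactory sensory neurons, where its KD partners held 24302 and 33430 and the NC libraries 61926 to 69388. The other defining neuron markers were low there as well, with 8 counts of Cnga2 and 9 of Cnga4, so the label of olfactory epithelium is not borne out by neuron markers in KD-2. The neuron markers were low in the other KD libraries too: fitted without KD-2, all 7 were below 0 (median -1.204 in log2 units), and in 6 of them KD-1 and KD-3 lay below all NC values. This shift accompanies the P450 values given without KD-2, and its part in them was not tested. NC-1 also stood apart, as the lowest library for all 4 markers of horizontal basal cells, all 4 of plasma cells, all 4 of macrophages, all 3 of endothelium and all 5 tested airway secretory markers. It was the highest library for 12 of 21 tested P450 genes of foreign compounds, and for 18 of all 43 tested members. Of 18444 tested genes, NC-1 was the lowest library in 5992 and the highest in 5563. Totals of 15704791 to 17618540 counts per library were similar. Many of the values that leaving out a library moves by much are therefore also given without it. In bulk tissue, fewer cells of a type and less RNA per cell cannot be told apart. The hepatocyte markers Ttr, Apoa1 and Serpina1a had at most 6, 3 and 11 counts in any library. Of other markers, a log2 fold change above 0 was found for all 5 tested airway secretory and all 6 multiciliated markers. It held for all 4 markers of horizontal basal cells, all 3 of endothelium, all 4 of plasma cells and all 4 of macrophages. Of 4 fibroblast markers 3 were above 0, and of 18444 tested genes 9329 were. No marker of these lists passed edgeR's test, while DESeq2 called Muc5b (adjusted p = 0.017) and Cdh5 (adjusted p = 0.0496). The secretory markers summed to 23354 to 32760 CPM in KD and 7975 to 16474 in NC, and Scgb1a1, the club cell marker, had at most 1 count. The part of these cells in the P450 values was not tested.

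The microRNAs named in the KD label bind messengers through a seed, bases 2 to 8, set here in capitals, and the mature forms are shown because these letters were searched in the P450 messengers.
mmu-miR-200b-3p: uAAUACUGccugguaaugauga
mmu-miR-200a-3p: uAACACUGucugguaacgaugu
Both come from RefSeq (GRCm38.p6, minus strand), at chr4:156055685-156055706 and chr4:156054911-156054932. In the longest annotated 3′ UTR of 45 P450 members, 6 held the reverse complement of a seed (CAGTATT for miR-200b, CAGTGTT for miR-200a), or 13.3%, against 29% of 15786 tested genes. The P450 UTRs were also shorter, with a median of 507 bases against 1175. The 6 genes were Cyp1b1, Cyp26b1, Cyp2d22, Cyp2j6, Cyp2u1 and Cyp4v3. Matches of 4 of them, with KD values on either side of NC, are printed with 7 bases on either side and the match in capitals (transcript strand, GENCODE M21 transcripts, GRCm38, all on the minus strand).
Cyp1b1, miR-200a match: aggaaccCAGTGTTcccaaat
Cyp1b1, miR-200b match: gttgtgtCAGTATTttaaagg
Cyp26b1, first miR-200a match: cccatgaCAGTGTTagcgccg
Cyp2j6, miR-200b match: aagatttCAGTATTttatttc
Cyp4v3, miR-200a match: ccaagggCAGTGTTtggcctg
They lie at chr17:79709263-79709283, chr17:79707904-79707924, chr6:84574013-84574033, chr4:96517159-96517179 and chr8:45305030-45305050. A match is a description of letters, not a shown binding site. The 6 genes did not share a direction: the log2 fold change of KD over NC was 0.93 for Cyp1b1 and 0.24 for Cyp26b1, -0.01 for Cyp2d22, -0.72 for Cyp2j6, -1.29 for Cyp2u1 and -0.91 for Cyp4v3. Their median was -0.36, and that of 35 tested members without a match was -0.40.

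A few genes carried nearly all P450 messengers of this tissue. P450 counts made up 0.684%, 0.174% and 0.928% of all counts of the KD libraries. In NC the shares were 1.202%, 1.012% and 1.031%. All 3 KD shares thus lay below all NC shares, KD-3 by the least. For KD-2 the 95% exact (Clopper-Pearson) interval was 0.172 to 0.176. Such intervals and limits cover counting error only, since no molecular identifiers are described. Within the P450 counts of the NC libraries, Cyp2a5 took 47.7% to 49.7%, Cyp2g1 25.6% to 30.8%, Cyp2f2 8.38% to 12.1% and Cyp1a2 3.34% to 3.84%. KD-1 and KD-3 kept a similar make-up, with Cyp2a5 at 52.9% and 49.98% and Cyp2g1 at 22.0% and 23.9%. In KD-2 the order was another: Cyp2a5 and Cyp2f2 were level at 36.0% and 35.7%, while Cyp2g1 took 1.41% (95% exact interval 1.27 to 1.55) and Cyp1a2 0.456%.

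**Figure D1:**
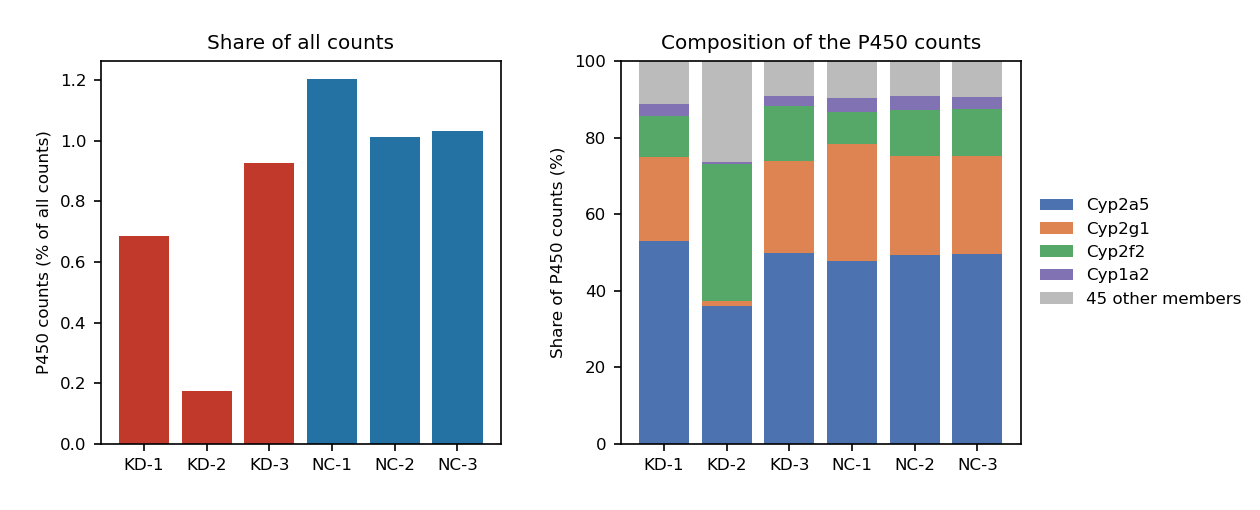
Left, counts of the 49 P450 members as a percentage of all counts in each library (KD red, NC blue). Right, the share of those counts taken by Cyp2a5, Cyp2g1, Cyp2f2, Cyp1a2 and the 45 other members; KD-2 stands apart, with 1.41% Cyp2g1 and 35.7% Cyp2f2.

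Levels between genes were compared as CPM (TMM-normalised counts per 1000000) per kilobase of annotated exon. On that scale the NC mean was 2428 ± 300 for Cyp2a5, 1333 ± 338 for Cyp2g1, 539 ± 47.5 for Cyp2f2 and 185 ± 29.0 for Cyp1a2 (SD, n = 3 each). The fifth, Cyp2e1, stood at 62.8 ± 46.8. Of the 49 members, 14 had an NC mean of at least 10 on this scale and 13 had one under 1. In KD-2 Cyp2f2 ranked first, at 370, Cyp2a5 came next at 364, and Cyp2g1 ranked 6 at 13.7.

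**Figure D2:**
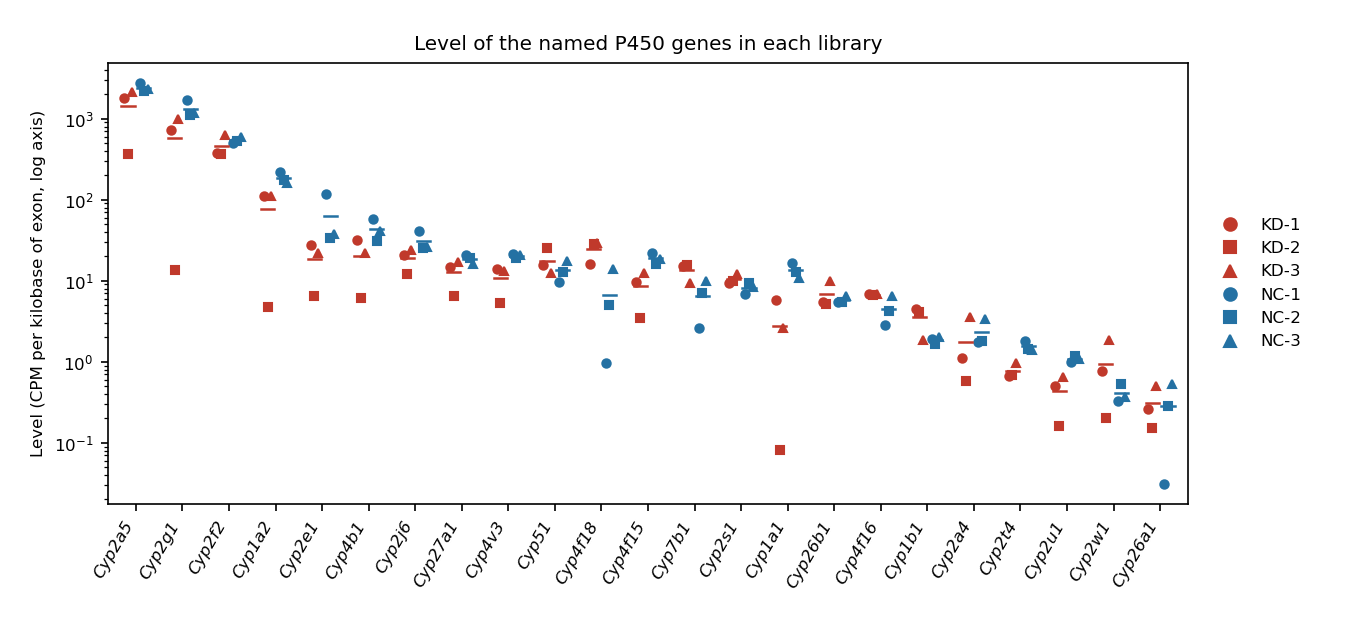
Level (CPM per kilobase of exon, log axis) of the 23 P450 genes named by rule in each library, with KD in red, NC in blue and short lines marking the means (n = 3). KD-2, the red square, lies far below the other libraries for Cyp2g1, Cyp1a2 and Cyp1a1, and the red symbols lie above the blue ones for Cyp4f18.

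No P450 gene passed the test. Of the 49 members, 43 passed the filter on low counts and were tested in the fit across 18444 genes (edgeR's quasi-likelihood test, Benjamini-Hochberg adjustment, two-sided). At an adjusted p under 0.05, 0 were higher and 0 lower in KD, as were 0% of all tested genes in each direction. The smallest adjusted p of a member was 0.28, shared by Cyp2c44 and others. At an unadjusted p under 0.05, 6 members were lower (Cyp2c44, Cyp2t4, Cyp2u1, Cyp4f15, Cyp4v3 and Cyp2e1) and 1 was higher (Cyp1b1), where the background was 9.25% lower and 8.7% higher. DESeq2 called 0 members, against 0.821% of all genes higher and 1.07% lower. In the authors' deposited table, 8 members had an unadjusted p under 0.05 on the low side, adding Cyp1a1 and Cyp2b19 to those 6, and 2 on the high side, Cyp1b1 and Cyp4f18. That table gave 7.87% of all genes lower and 6.3% higher at this level.

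Below the threshold, the values leaned to the low side. A fitted log2 fold change below 0 was found for 30 of 43 tested members (69.8%), against 49.4% of all tested genes, with a median of -0.34 against 0.01. In 14 members all 3 KD values lay below all 3 NC values (32.6%, background 18.6%), and in 3 they lay above (6.98%, background 15.3%). KD-2 was the lowest of the 6 libraries in 28 of 43 members (65.1%), against 30.6% of all tested genes. Fitted without KD-2, 27 of 45 tested members were below 0 (background 49.5%), with a median of -0.23. In 14 members the values of KD-1 and KD-3 both lay below all NC values (background 20.3%), and in 5 both lay above (background 17%). These shares describe members chosen by name and carry no test.

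**Figure D3:**
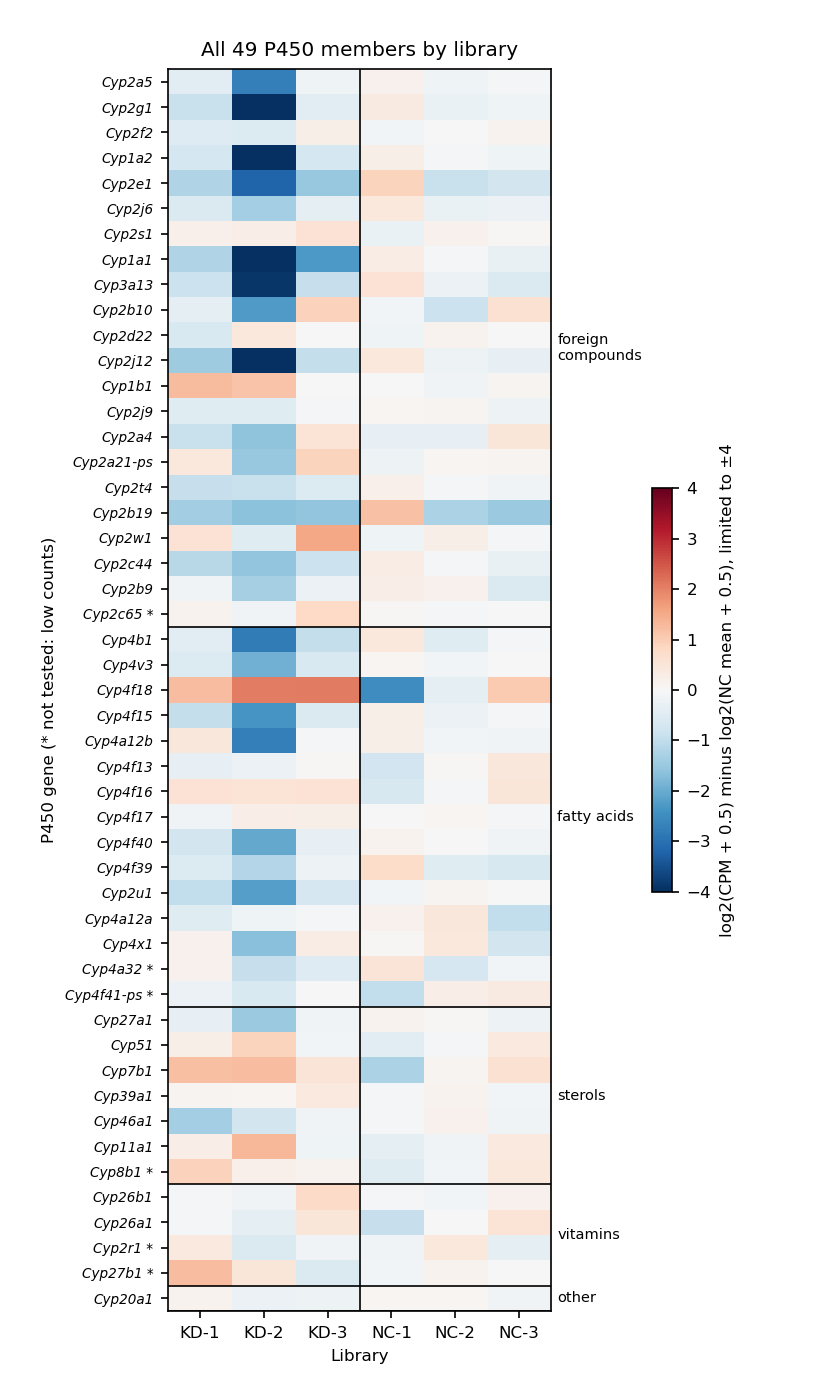
Log2 of CPM + 0.5 relative to the NC mean for all 49 P450 members (rows, grouped by role, highest level first) in each library (columns), with blue lower and red higher; colours are limited to 4 in either direction. The dark blue cells are in the KD-2 column, for Cyp2g1, Cyp1a2, Cyp1a1, Cyp3a13 and Cyp2j12, and Cyp4f18 is red in all KD libraries.

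The enzymes of foreign compounds and odorants were the largest group and held 17 of the 30 values below 0. Of 22 members with this role, 21 were tested, 17 were below 0 and the median log2 fold change was -0.76 (-0.30 without KD-2). Without both KD-2 and NC-1 the median was -0.18, with 16 below 0. The share below 0 was 81% here, close to the 76.9% of the fatty acid and eicosanoid enzymes, and 69.8% for all tested members. Cyp2a5, which oxidises coumarin and many nasal toxicants (chromosome 7, 26835305 to 26843548, build GRCm38), had 63598, 9852 and 80324 counts in KD against 92635, 88003 and 87242. All KD values were below all NC values, with KD-3 close to them. The log2 fold change was -0.76 (SE 0.658, adjusted p = 0.49), with -0.28 without KD-2 and -1.17 without KD-3.

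Cyp2g1, a steroid hydroxylase known for its restriction to the olfactory lining (chromosome 7, 26808892 to 26821205), had 26440, 385 and 38357 counts in KD and 59865, 46286 and 44981 in NC. The groups did not overlap, and KD-2 stood at 1.03% of the NC mean in CPM while KD-1 and KD-3 together stood at 64.0%. The log2 fold change was -1.22 (SE 1.2, adjusted p = 0.54), with -0.62 without KD-2 and -1.86 without KD-3. It was -0.39 without both KD-2 and NC-1. Cyp2f2, the enzyme that activates naphthalene in airway epithelium (chromosome 7, 27119909 to 27133660), had 12971, 9785 and 23323 counts against 16284, 21022 and 21308. Here the groups overlapped, KD-3 being the highest of all, and KD-2 stood at 68.7% of the NC mean. Its log2 fold change was -0.23 (SE 0.298, adjusted p = 0.64), with -0.07 without KD-2 and -0.53 without KD-3.

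Ratios within a library do not depend on its scaling. Per 100 Cyp2a5 counts there were 41.6, 3.91 and 47.8 Cyp2g1 counts in KD and 64.6, 52.6 and 51.6 in NC. All KD ratios lay below all NC ratios (p = 0.1 by a two-sided exact permutation test, which 3 against 3 cannot go below, and 0.16 after adjustment over 8 ratios). Cyp2f2 per 100 Cyp2a5 counts gave 20.4, 99.3 and 29.0 against 17.6, 23.9 and 24.4 (exact permutation test, two-sided p = 0.3, adjusted 0.34). KD-1 lay within the NC range, KD-3 a little above it and KD-2 far above it. The 8 ratios were chosen after the values were seen. The adjustment also covered the ratios to Omp given below, which test nothing about P450 genes. Including them makes adjusted values such as 0.16 smaller.

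Genes listed as markers of the cells that hold these enzymes did not move as a block. Of 8 genes listed for sustentacular cells, other than P450 genes, 7 were tested and 3 were below 0. Ermn, an actin-linked protein of these cells, had 641, 146 and 1077 counts against 1228, 1221 and 1069, lowest in KD-2. Umodl1 had 31 counts in KD-2 against 12268 to 22070 in NC. In CPM it stood at 0.247% of the NC mean in KD-2, and at 42.8% in KD-1 and KD-3 together. For the neuron marker Omp these values were 0.307% and 43.9%, and which cells hold Umodl1 here was not tested. Sec14l3 had 600 counts in KD-2 against 24033 to 43913 in NC. In contrast Cbr2, a carbonyl reductase, had 51617 counts in KD-2 against 22787 to 49012 in NC, and Sult1c1, a sulfotransferase, 15264 against 5225 to 14127. Ugt2a1, the eighth, was near 0 in all libraries, with at most 2 counts. Krt18 and Hes1 also had a log2 fold change above 0 (0.60 and 0.86). The summed level of the 8 ran from 4575 to 6502 CPM in KD and from 6154 to 6207 in NC. Cbr2 weighs heavily in this sum, with 3954 of 5880 CPM in KD-2, so the sum does not stand for each marker. Of 4 Bowman gland markers 2 were below 0, summing to 1028 to 1835 CPM in KD and 1290 to 2086 in NC.

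Cyp2g1 counts per Ermn count were 41.2, 2.64 and 35.6 in KD and 48.8, 37.9 and 42.1 in NC (exact permutation test, two-sided p = 0.2, adjusted 0.27). Cyp2a5 counts per Ermn count were 99.2, 67.5 and 74.6 against 75.4, 72.1 and 81.6 (exact permutation test, two-sided p = 0.9, adjusted 0.9). For Cyp2g1, KD-1 lay within the NC range, KD-3 just below it and KD-2 far below it. For Cyp2a5, KD-3 lay within the NC range, KD-1 above it and KD-2 just below it. Per Omp count, Cyp2g1 stood at 1.09, 2.58 and 1.15 in KD and 0.863, 0.697 and 0.726 in NC, all KD values above all NC values (exact permutation p = 0.1, adjusted 0.16). Cyp2a5 and Cyp2f2 per Omp count were likewise higher in every KD library (exact permutation p = 0.1 each, adjusted 0.16). Omp was already known to be low in all KD libraries, with KD-1 and KD-3 together at 43.9% of the NC mean. The p-values of these Omp ratios therefore test nothing about P450 genes. The part of cell make-up in the P450 values was not tested.

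**Figure D4:**
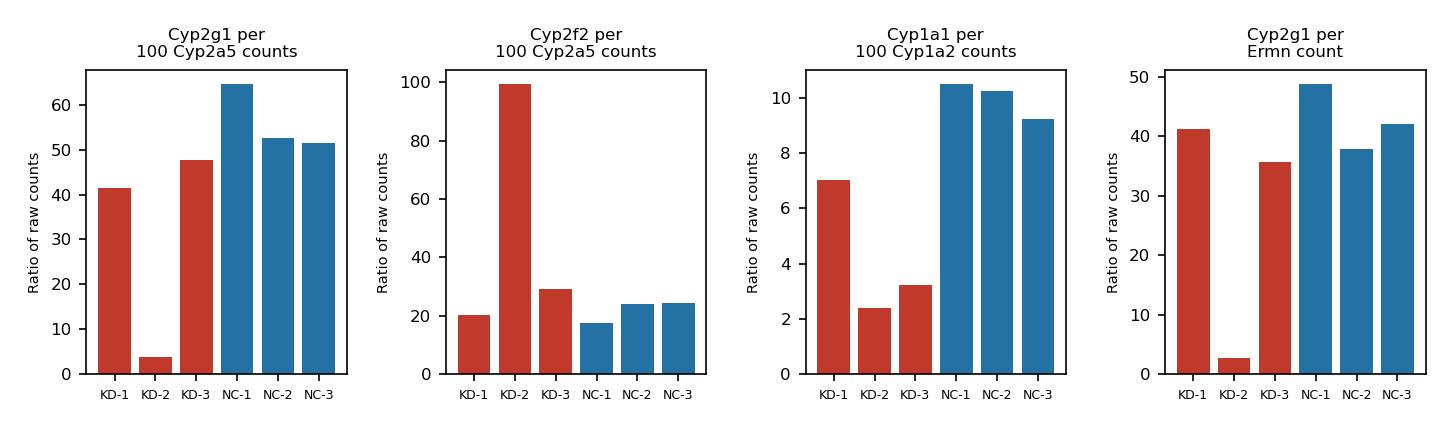
Ratios of raw counts within each library (KD red, NC blue, bars from 0, a scale for each panel). KD-2 is lowest for Cyp2g1 per 100 Cyp2a5 (3.91) and Cyp2g1 per Ermn (2.64) and highest for Cyp2f2 per 100 Cyp2a5 (99.3), and all 3 KD libraries are below all NC libraries for Cyp1a1 per 100 Cyp1a2.

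The 3 genes of family 1, all known targets of the aryl hydrocarbon receptor Ahr, did not share a direction. Cyp1a1, which oxidises polycyclic aromatic compounds (chromosome 9, 57687928 to 57703824), had 273, 3 and 132 counts in KD and 747, 702 and 542 in NC. The groups did not overlap, and KD-1 and KD-3 alone stood at 31.0% of the NC mean. Its log2 fold change of -2.25 (SE 1.05, adjusted p = 0.30) was the lowest of all tested members, and it was -1.66 without KD-2 (adjusted p = 0.30) and -1.49 when NC-1 was left out as well.

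Cyp1a2, its neighbour, which oxidises arylamines and caffeine (chromosome 9, 57676937 to 57683703), had 3880, 125 and 4103 counts against 7112, 6848 and 5858. It too did not overlap, and its log2 fold change was -1.27 (SE 0.974, adjusted p = 0.45) and -0.69 without KD-2. Cyp1a1 was lower relative to Cyp1a2 in every KD library: per 100 Cyp1a2 counts there were 7.04, 2.40 and 3.22 Cyp1a1 counts in KD and 10.5, 10.3 and 9.25 in NC. An exact permutation test gave a two-sided p = 0.1, the smallest possible with 3 against 3, and 0.16 after adjustment. That adjustment likewise included the ratios to Omp. The KD-2 value rests on 3 counts.

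Cyp1b1, which hydroxylates oestrogens and is typical of stromal cells (chromosome 17, 79701537 to 79715061), had 454, 317 and 199 counts against 179, 191 and 208. KD-1 and KD-2 were above all NC values in CPM, and KD-3 was within the NC range of 9.76 to 11.7. Its log2 fold change was 0.93 (SE 0.346, adjusted p = 0.28). The core letters that Ahr binds, GCGTG on either strand, were searched in RefSeq promoters (GRCm38.p6) from 250 bases before to 50 after each gene's start. Of 37 members with a promoter entry, 13 held them (35.1%), against 35.2% of all 27025 genes. In family 1 they were present in the windows of Cyp1a1 and Cyp1b1, shown with the motif in capitals on the gene's strand, and these letters were not in the Cyp1a2 window.
Cyp1a1: cagataaggagGCGTGgccaacagaca
Cyp1b1: gtcccgcccctCACGCcccacccccta
They lie at chr9:57697548-57697574 and chr17:79715122-79715148. These letters are not shown Ahr sites, and sequence outside the window was not searched. Their presence or absence here therefore does not tell whether Ahr acts on a gene. Ahr itself had a KD mean of 54.3 ± 11.4 CPM against 37.2 ± 7.98 (SD, n = 3 each; adjusted p = 0.28), and the groups overlapped. Ahrr, its repressor, had 6, 2 and 4 counts against 6, 14 and 10 and was too low to test.

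Other members of this role followed in smaller amounts. Cyp2e1, which oxidises ethanol and acetone (chromosome 7, 140763739 to 140774987), had 1011, 185 and 859 counts against 4085, 1424 and 1463. The groups did not overlap, but NC-1 was far above the other NC libraries: the log2 fold change of -1.75 (SE 0.695, adjusted p = 0.28) became -0.94 without NC-1, or -0.52 when KD-2 was left out as well. Cyp2j6 stood at 68.2 ± 22.4 CPM against 112 ± 32.5 without overlap (log2 fold change -0.72, SE 0.323, adjusted p = 0.29). The Cyp2j6 value was -0.46 without KD-2, -0.46 without NC-1 and -0.19 without both. Its cluster neighbour Cyp2j12 had 56, 0 and 84 counts against 209, 159 and 134. The count of 0 in KD-2 allows 3 counts, which is 0.191 per 1000000.

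Among the rarer genes, Cyp2t4 stood at 1.29 ± 0.272 CPM against 2.57 ± 0.392 (log2 fold change -0.99, SE 0.319, adjusted p = 0.28). This gene, whose exons overlap Egln2 on the other strand, was near the same level in all KD libraries, 1.11 to 1.60 CPM. Cyp2c44, an epoxygenase, had 5, 1 and 8 counts against 26, 23 and 16 and is named because it had the smallest p of the members, although its level lay under the rule for named genes. Cyp2b19, a P450 of skin keratinocytes, had 215 counts in NC-1 and 19 to 40 in the other libraries. Its log2 fold change of -1.79 became -0.10 without both KD-2 and NC-1.

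Cyp2s1, an epithelial P450, had 801, 635 and 1102 counts against 548, 908 and 748, and in CPM the KD range of 46.8 to 60.7 lay just above the NC range of 33.8 to 46.4. Its log2 fold change was 0.35 (SE 0.179, adjusted p = 0.31), or 0.23 without KD-3. Cyp2w1 had 20, 4 and 51 counts against 8, 16 and 10 and overlapped, and its log2 fold change of 1.2 became 0.27 without KD-3. Cyp2b10, which is inducible by phenobarbital, had 170, 30 and 449 counts against 191, 136 and 355, a spread within each group that was wider than the difference between them.

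Cyp2a4 and Cyp2a5 could in part be confused. Their coding sequences of 1485 bases differ at 23 positions, an identity of 98.5%, and 4.22% of the 150-base windows of the Cyp2a4 transcript occur exactly in Cyp2a5. Cyp2a4, which hydroxylates testosterone, had 33, 13 and 112 counts against 50, 61 and 105, and its log2 fold change of -0.40 became 0.03 without KD-2. Cyp4a12a and Cyp4a12b share more, 25.6% and 25.9% of their windows, and exons of 10 members overlap those of another gene. The 10 are Cyp2a4, Cyp2f2, Cyp2s1, Cyp2t4, Cyp2u1, Cyp4f18, Cyp4v3, Cyp4x1, Cyp11a1 and Cyp51. The sources used here do not give the strand setting of the counting, and values of these genes are uncertain.

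The fatty acid and eicosanoid enzymes held both low values and the highest fold change of the members. Of 15, 13 were tested, 10 were below 0 and the median log2 fold change was -0.33 (-0.34 without KD-2). Cyp4b1, which activates furans in lung and nose (chromosome 4, 115624725 to 115647723), had 1244, 180 and 910 counts against 2121, 1379 and 1652. KD-1 overlapped the NC range in CPM, and the log2 fold change was -1.10 (SE 0.584, adjusted p = 0.32), or -0.65 without KD-2. It was -0.39 when NC-1 was left out as well. Cyp4v3, a fatty acid omega-hydroxylase (chromosome 8, 45304944 to 45333216), had 906, 264 and 916 counts against 1329, 1420 and 1395 without overlap. It stood at 66.6% of the NC mean in KD-1 and KD-3 together, and its log2 fold change was -0.91 (SE 0.360, adjusted p = 0.28), or -0.56 without KD-2.

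Cyp4f15, a leukotriene hydroxylase gene (chromosome 17, 32685627 to 32703352), had 379, 104 and 516 counts against 822, 714 and 749. It did not overlap, and the log2 fold change was -1.14 (SE 0.447, adjusted p = 0.28), or -0.74 without KD-2. Cyp2u1, which hydroxylates long-chain fatty acids, stood at 2.30 ± 1.32 CPM against 5.68 ± 0.473, also without overlap. Its log2 fold change of -1.29 became -0.88 without KD-2. Cyp4f16 was higher in all KD libraries, at 20.4 to 21.1 CPM against 8.70 to 19.8 (adjusted p = 0.32). Its log2 fold change of 0.58 ran from 0.34 without NC-1 to 0.93 without NC-3.

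Cyp4f18, which degrades leukotriene B4 and is best known from neutrophils and other myeloid cells (chromosome 8, 71988482 to 72009626), had 506, 683 and 972 counts against 29, 185 and 461. All KD values were above all NC values, and the NC libraries differed widely, with NC-1 the lowest of all. The log2 fold change of 1.87 (SE 0.848, adjusted p = 0.29) was the highest of the tested members. It was 1.77 without KD-2, and 1.26 when NC-1 was left out as well, but 2.999 without NC-3. All 4 macrophage markers had a log2 fold change above 0, none past the test in edgeR or DESeq2, summing to 195 to 290 CPM in KD and 63.2 to 153 in NC, and their part in the Cyp4f18 values was not tested.

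**Figure D5:**
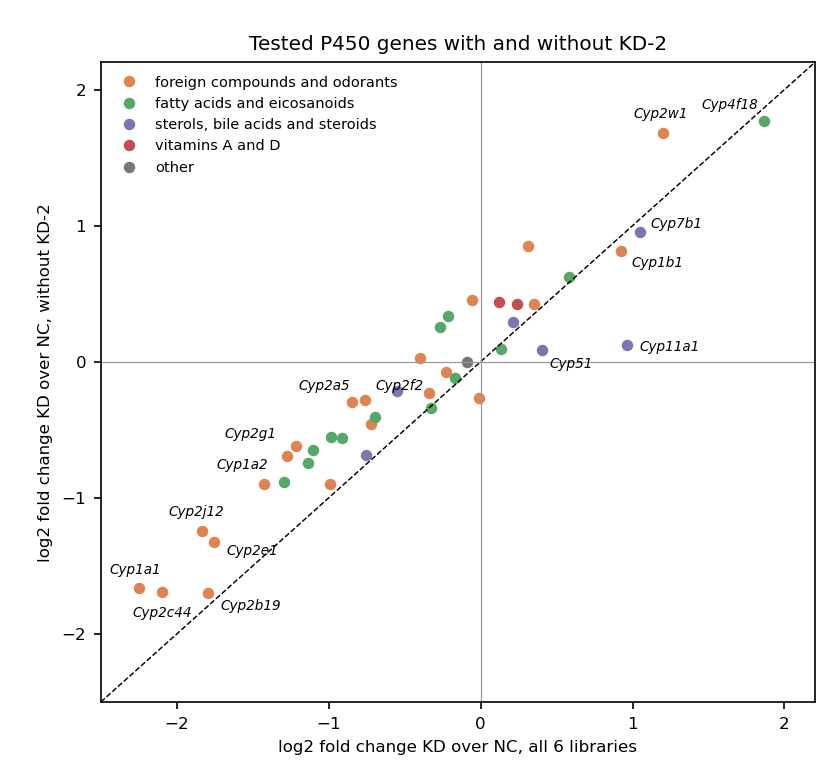
Log2 fold change of KD over NC for the 43 tested P450 genes with all 6 libraries (horizontal axis) and without KD-2 (vertical axis), coloured by role, with a dashed line where both are equal. Of the 43, 32 lie closer to 0 without KD-2, among them Cyp2g1 (-1.22 and -0.62) and Cyp1a1 (-2.25 and -1.66).

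Of 7 enzymes of sterols, bile acids and steroids, 6 were tested, 2 were below 0 and the median log2 fold change was 0.31 (0.11 without KD-2). Without both KD-2 and NC-1, 4 of the 6 were below 0 with a median of -0.12, where the median of all members was -0.13. Cyp51, the lanosterol demethylase of cholesterol synthesis (chromosome 5, 4081145 to 4104746), had 1189, 1447 and 994 counts against 699, 1104 and 1399. The groups overlapped (log2 fold change 0.40, SE 0.334, adjusted p = 0.48), with KD-2 the highest library. The value was 0.09 without KD-2, -0.10 when NC-1 was left out as well, and 0.66 without NC-3. Cyp7b1, an oxysterol hydroxylase (chromosome 3, 18071950 to 18243338), had 572, 439 and 372 counts against 91, 296 and 385. KD-3 lay within the NC range, and the log2 fold change was 1.05 (SE 0.490, adjusted p = 0.30). It ran from 0.67 without NC-1 to 1.49 without NC-3.

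Cyp27a1, the mitochondrial sterol hydroxylase (chromosome 1, 74713574 to 74737892), went the other way with 546, 184 and 666 counts against 723, 815 and 624. Its low value was that of KD-2: the log2 fold change of -0.55 (SE 0.352, adjusted p = 0.38) became -0.21 without that library. Cyp39a1, another oxysterol hydroxylase, stood at 22.6 ± 2.94 CPM against 19.5 ± 1.99, and Cyp46a1, the cholesterol hydroxylase of neurons, at 2.79 ± 1.37 against 4.71 ± 0.631. Cyp11a1, which begins steroid synthesis, had 28 counts in KD-2 and 5 to 16 in the other libraries. Cyp8b1 of bile acid synthesis, with 34 counts in all, was not tested.

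For vitamins A and D the levels were low apart from 1 gene. Cyp26b1, which removes retinoic acid (chromosome 6, 84571414 to 84593908), had 505, 365 and 959 counts against 481, 566 and 621. The groups overlapped, KD-3 was the highest, and the log2 fold change of 0.24 (SE 0.274, adjusted p = 0.60) became -0.11 without KD-3. Its relative Cyp26a1 had 9, 4 and 18 counts against 1, 11 and 19, and its sign depended on the library left out. Cyp27b1 and Cyp2r1, which activate vitamin D, had 41 and 61 counts in all and were not tested. Cyp20a1, whose substrate is not established, had a KD mean of 19.5 ± 3.04 CPM against 20.8 ± 1.85 (log2 fold change -0.09, SE 0.173).

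The low values were not tied to 1 place in the genome. The members lay at 26 loci when genes less than 1000000 bases apart were joined, 5 of them with more than 1 member and 21 with a single one. The cluster of 10 genes on chromosome 7 (25802475 to 27158668), which holds Cyp2a5, Cyp2g1 and Cyp2f2, had 8 of 10 below 0 and a median log2 fold change of -0.58, or -0.18 without KD-2. Within those bounds Cyp2g1 and Cyp2f2 differed in KD-2, at 1.03% and 68.7% of their NC means. The group of 3 Cyp2j genes on chromosome 4 (96099318 to 96591578) had a median of -0.72, and all 3 were below 0 with and without KD-2. The Cyp4f group of 7 on chromosome 17 (32452723 to 32965718) had 6 tested genes, 4 of them below 0, with Cyp4f15 low and Cyp4f16 high among its members.

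Partners of the enzymes had values on both sides of NC. Of 21 genes that pass electrons to P450 enzymes, supply haem, control P450 genes or belong to related haem proteins, 18 were tested, 8 were below 0, and the median log2 fold change was 0.03. None passed the test in edgeR or DESeq2. Por, the reductase that serves all P450 enzymes of the endoplasmic reticulum, had 9123, 6367 and 12821 counts against 10793, 12159 and 11938, and overlapped (log2 fold change -0.18, SE 0.221, adjusted p = 0.62). Cyb5a, the cytochrome b5 of this pathway, had 2736, 1353 and 3335 counts against 3509, 3848 and 4133, without overlap, and KD-2 stood at 48.2% of the NC mean (log2 fold change -0.53, SE 0.241, adjusted p = 0.29). Pgrmc1, a haem-binding partner of P450 enzymes, did not overlap either, with KD-2 at 48.9% (log2 fold change -0.48, adjusted p = 0.33). Without KD-2 the values were -0.30 for Cyb5a and -0.25 for Pgrmc1. Ppara, a receptor that induces family 4 genes, overlapped at -1.60 (adjusted p = 0.30), or -0.33 without both KD-2 and NC-1.

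The 3 partners with the smallest p were Hmox1, Ahr and Rxra. Hmox1, which breaks haem down, had 1191, 1777 and 1196 counts against 402, 797 and 1118, without overlap in CPM (log2 fold change 1.08, SE 0.432, adjusted p = 0.28). The Hmox1 value was 0.69 without KD-2 and 0.41 when NC-1 was left out as well. Rxra, the partner of the xenobiotic receptors, stood at 68.9 ± 8.88 CPM against 52.4 ± 7.72 (adjusted p = 0.28). Its log2 fold change of 0.39 became 0.19 without both KD-2 and NC-1. The receptor Nr1i2 was scarce, with 15, 19 and 22 counts against 6, 17 and 9, and Nr1i3 had at most 4 counts in any library.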

How the data were processed

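Per the labels' protocols, total RNA of flash-frozen tissue was poly(A)-selected and sequenced in paired reads. The authors deposited raw counts per gene and library. Their table also holds, per the file headers, a signal column (the mean over libraries of counts divided by size factors, recomputed here to within 0.0142%), the log2 ratio of KD to NC and a p-value without adjustment. GRCm38 is the build, per the submitters' processing notes, which list HTSeq 0.6.0, the aligners HISAT2 2.1.0, TopHat2 and Bowtie2 2.2.3, and both DESeq and DESeq2, with no order. Neither the gene annotation nor the strandedness of counting is given in the sources used here.

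Genes were fitted with edgeR 4.0.16 (R 4.3.3) on the counts: TMM factors, the default filter on low counts, quasi-likelihood test over all 6 libraries with no covariate, Benjamini-Hochberg adjustment over 18444 genes, threshold 0.05. A standard error is the absolute log2 fold change divided by the root of F. DESeq2 1.42.0 and limma 3.58.1 (voom) were alternatives on the same genes, and DESeq2 gave an adjusted p for 18390. Scripts were tested on simulated data. Positions, exon lengths and UTRs came from GENCODE M21, which held all 49 members. The UTRs and shared windows were read from its transcript sequences.

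The rule for named genes took the 12 highest members by level per exon length, the 6 with the smallest p in each direction at a mean of at least 1 CPM, and a fixed set of symbols. Of the 21 partner genes it took the 3 with the smallest p. It gave 23 members, and others are named as range ends, for counts of 5 or fewer or after their values were seen. Members and lists were chosen with earlier results of these data known.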

Additional observations from a re-analysis of the deposited data

How the results depend on the processing

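Of the tested P450 members, 0 were called under each of the 13 alternatives to the fit (other scaling factors, no filter, DESeq2, limma-voom, 1 or 2 libraries left out, the replicate number as a block). The smallest adjusted p of a member ran from 0.11 (Cyp2c44, DESeq2) to 0.48. Over all genes, DESeq2 called 151 higher and 196 lower and the fit without both KD-2 and NC-1 called 3 higher, against 0 and 0. The members' median of -0.34 ran from -0.81 (without KD-3) to -0.13 (without both KD-2 and NC-1), and was -0.61 under limma-voom.

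The 23 named members kept their direction in 293 of 299 values. With 1 library left out, Cyp2a4 ran from -1.45 to 0.031, Cyp26b1 from -0.11 to 0.43 and Cyp26a1 from -0.42 to 0.93. Reversed values were 0.031 for Cyp2a4 (without KD-2), -0.11 for Cyp26b1 (without KD-3), -0.42, -0.39 and -0.066 for Cyp26a1 (without KD-3, NC-1, and both KD-2 and NC-1) and -0.097 for Cyp51 (without both). The cause was not tested.

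With the replicate block, 0 genes were called, 31 members were below 0 against 30, and their median was -0.61. Deviations of same-numbered libraries from their group means had correlations of 0.31, 0.10 and -0.26. With 3 libraries a group these deviations depend on each other, so they cannot show whether the numbers pair libraries. Counting every P450 row with any count gave 80 in place of 49, and ranking by longest transcript kept 11 of the 12 highest members. With 3 libraries a group and KD-2 apart, differences of the size seen for Cyp2a5 or Cyp2g1 did not pass the threshold.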
